A study of Arabidopsis thaliana with 33 samples.

Results

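Genes whose RNA stood far higher in the ski2-2 dcl4-2 double mutant of Arabidopsis than in any other genotype of the series were collected by a rule on level. A gene belonged if it had at least 5 FPKM in ski2-2 dcl4-2 and at least 4 times the highest value of the other 10 genotypes. FPKM is a level scaled by transcript length and by the number of fragments in the library. IRT1, FRO2, CYP82C4 and PYK10 were left out by name, 3 of which passed both thresholds. The rule took in 107 of the 33557 genes of the table. Because these values chose the genes, their height in ski2-2 dcl4-2 is given as a description, with no test.

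Poly(A) RNA came from untreated aerial parts of plants aged 20 days, which had spent 6 days on MS plates before 14 days in soil. The series held 33 libraries, 3 for each of 11 genotypes. The mutants were the doubles ski2-2 dcl4-2, ein5-1 dcl4-2, ski2-2 dcl2-1 and ein5-1 dcl2-1, the triples ski2-2 dcl4-2 dcl2-1 and ein5-1 dcl4-2 dcl2-1, and the singles ski2-2, dcl4-2, ein5-1 and dcl2-1. The wild type was Col-0. The title places the study around siRNAs of 22 nucleotides, translational repression and stress adaptation.

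SKI2 is a helicase that helps the cytoplasmic exosome degrade RNA from its 3′ end, and EIN5 is the exonuclease that degrades it from the 5′ end. RNA that escapes both routes can be copied into double strands and cut by Dicer-like enzymes. DCL4 makes siRNAs of the common length, and DCL2 makes a longer class that is held back while DCL4 is present.

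The authors' deposited table gave 1 FPKM per gene and genotype, pooled over the 3 libraries, so no value below has an SD and no library can be left out. Read depth was not given. FPKM summed over all genes ran between 753957 in ski2-2 dcl4-2, the lowest, and 1352350. For 8 pairs of genotypes the authors also gave a log2 ratio, a p-value and a q-value, and a gene is called higher or lower where that q was under 0.05, the ratio was at least 2-fold and 1 of the genotypes had 1 FPKM or more. The design text calls the 3 libraries of a genotype biological replicates without saying what was separate, so the authors' q covers the spread between these libraries.

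The 107 genes had a median of 15.99 FPKM in ski2-2 dcl4-2 and a range of 5.03 to 811 FPKM. Their median was 1.81 FPKM in ein5-1 dcl4-2. In the 8 other mutants the medians lay between 0.061 and 0.143 FPKM, and the median in Col-0 was 0.228 FPKM. Most of these genes were therefore near 0 in every genotype except the ski2-2 and ein5-1 doubles that carry dcl4-2. In bulk RNA a larger share of a cell type and more RNA per cell cannot be told apart. All 107 reached 1 FPKM in ski2-2 dcl4-2 and 68 did in ein5-1 dcl4-2, against 17 to 25 in the 8 other mutants and 20 in Col-0. Adding dcl2-1 to the double mutant went with a median of 0.0782 FPKM in ski2-2 dcl4-2 dcl2-1.

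**Figure D1:**
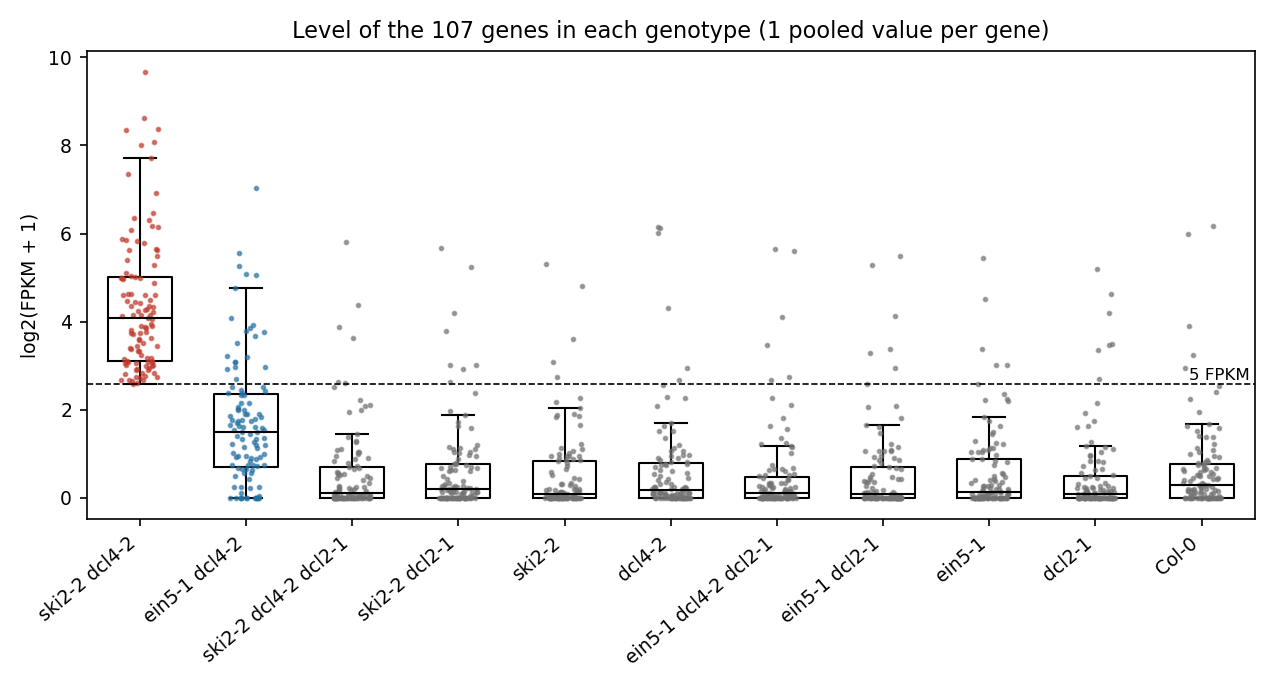
Level of each of the 107 genes in each genotype as log2(FPKM + 1), with 1 point per gene, the median as a line, the middle of the distribution as a box and whiskers to the farthest point within 1.5 box lengths. The dashed line marks the 5 FPKM that the rule required in ski2-2 dcl4-2, where the median is 15.99 FPKM, and ein5-1 dcl4-2, with a median of 1.81 FPKM, lies between it and the rest.

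The ratio of ski2-2 dcl4-2 to the next genotype could be taken for 96 of the genes and ran from 4.01 to 225, with a median of 6.46. It was at least 10 in 21 of them. The other 11 genes were listed at 0 in all 10 other genotypes. The next genotype was ein5-1 dcl4-2 for 80 of the 107 genes, dcl4-2 for 6, each of the 7 other mutants for 1 or 2 and Col-0 for 0. Among those 80 genes ein5-1 dcl4-2 itself stood at least 2 times above the remaining 9 genotypes in 60 and at least 4 times above them in 38. The name high in ski2-2 dcl4-2 alone thus holds for the size of the level, and 60 of the 107 genes had a smaller peak in ein5-1 dcl4-2. These peaks are by size alone, and a gene listed at 0 in the remaining 9 genotypes counted as past the fold. Some lay under 1 FPKM, such as PHT1;2 at 0.418 FPKM in ein5-1 dcl4-2 and at most 0.0911 FPKM in the remaining 9. With the same thresholds 397 genes were high in ein5-1 dcl4-2, and each of the 9 other genotypes had 2 to 11.

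Of the 8 pairs of genotypes that the authors tested, 4 do not include ski2-2 dcl4-2, and the rule used them only as a ceiling on the level. All 4 share the ein5-1 dcl4-2 libraries, so their counts are not separate evidence. Against Col-0, 40 of the 107 genes were higher and 0 lower in ein5-1 dcl4-2, by the authors' deposited q, where 20.4% of all 19493 genes tested were higher and 16.3% lower. Against ein5-1, 40 were higher and 0 lower in ein5-1 dcl4-2, beside 16.3% higher and 14.4% lower of all genes. Some of these 40 were listed at 0 in ein5-1, among them PSK1 and HSFA6A, each with an authors' q of 0.000201. In Col-0 PSK1 and HSFA6A had 0.402 and 0.114 FPKM, and their q for ein5-1 dcl4-2 over Col-0 was 0.349 and 0.348. Against dcl4-2, 37 were higher and 1 lower in ein5-1 dcl4-2, beside 19.7% and 15.7%. The 1 lower gene was AT5G15420, an uncharacterised gene listed at 0 FPKM in ein5-1 dcl4-2 and at 2.25 FPKM in dcl4-2. Its transcript is 95.3% identical over 66.4% of its length to AT1G20390, which had 1.54 FPKM in ein5-1 dcl4-2. Reads of one may therefore be assigned to the other. In the triple mutant ein5-1 dcl4-2 dcl2-1 against ein5-1 dcl4-2, 0 were higher and 37 lower, beside 16.4% and 19.1% of all genes. Members are taken over all 107, of which 36 or 37 had a p of 1 in each of these comparisons. The 40 genes higher than in Col-0 were 37.4% of the 107, of which 68 reached 1 FPKM in ein5-1 dcl4-2 or Col-0. The 20.4% is over genes that all reached it, so the denominators are unlike. The count of members also depends on the minimum. With a minimum of 5 FPKM 15 of the 107 were higher than in Col-0, 14 than in ein5-1 and 12 than in dcl4-2, and 13 were lower once dcl2-1 was added to ein5-1 dcl4-2. The shares of all genes were then 21.1%, 16.3%, 20.5% and 19.9%. They are again over genes that reached the minimum, 15453 in the pair with Col-0. Members below the minimum stay in the 107, so their counts over 107 cannot be set against these shares. Only 20 of the 107 reached 1 FPKM in Col-0, so few had room to be called lower.

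The median log2(FPKM + 1) difference of the 107 genes was 0.87 for ein5-1 dcl4-2 over Col-0, beside 0.11 over the 20704 genes that reached 1 FPKM in any genotype. It was -1.001 for ein5-1 dcl4-2 dcl2-1 over ein5-1 dcl4-2, beside -0.07. The count without the ein5-1 dcl4-2 libraries cannot be given, because these libraries stand in every tested pair that leaves out ski2-2 dcl4-2.

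The 8 other mutants had no test against Col-0, so genes are counted by size alone, a log2(FPKM + 1) difference of 1 or more. In ski2-2, 1 gene was past it upwards and 4 downwards, beside 2.90% and 2.66% of all genes. In dcl4-2, 3 were past it upwards and 2 downwards, beside 1.04% and 0.468%. In ski2-2 dcl4-2 dcl2-1, 1 was past it upwards and 3 downwards, beside 2.84% and 2.64%. The other 5 mutants had 1 to 4 upwards and 1 to 5 downwards. Their backgrounds were 4.99% up and 4.04% down in ski2-2 dcl2-1, 4% and 3.43% in ein5-1, and 5.09% and 4.16% in dcl2-1. They were 5.64% and 4.89% in ein5-1 dcl2-1, and 4.71% and 3.54% in ein5-1 dcl4-2 dcl2-1. A gene had to reach 1 FPKM in the mutant or Col-0 to be counted, and 24 to 29 of the 107 did. The shares of all genes are over genes that all reached it, so the denominators are unlike. With at most 5 genes in a direction little can be set against the background, and the medians of the 107 genes lay between -0.05 and 0 in all 8 mutants. AT5G64100, a peroxidase, AT1G13609, a defensin-like gene, and MLP34 were past the fold downwards in several of these mutants, against 1.60, 1.61 and 1.85 FPKM in Col-0.

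The contrasts with ski2-2 dcl4-2 were used by the rule, which largely fixed the authors' calls in them. Their counts are a description and not a test or support for the list. The q of ski2-2 dcl4-2 over Col-0 called 79 of the 107 genes higher, beside 15.1% of all genes. The counts were 73 against dcl4-2 and 71 against ski2-2, beside 14.7% and 14.2% of all genes, and 77 were lower in ski2-2 dcl4-2 dcl2-1 than in ski2-2 dcl4-2, beside 14.3%. Several genes with large ratios missed q. DAA1, an AAA ATPase, had 78.1 FPKM in ski2-2 dcl4-2 and 0.0425 FPKM in Col-0 with a q of 0.316. NRT2.1 had 48.6 and 0.0628 FPKM with a q of 0.106. In DAA1 and NRT2.1 the value in Col-0 was close to 0 but not listed at 0. GSTF14 and NAS2, listed at 0 in Col-0, had an authors' q of 0.000211. DAA1 had that same q against dcl4-2, where it was listed at 0. MT1A, also listed at 0 in Col-0, had a q of 0.356, and AT1G26250, at 0.124 FPKM in Col-0, had a q of 0.0245. Why some genes missed q was not tested, and 5 genes had a p of 1.

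**Figure D2:**
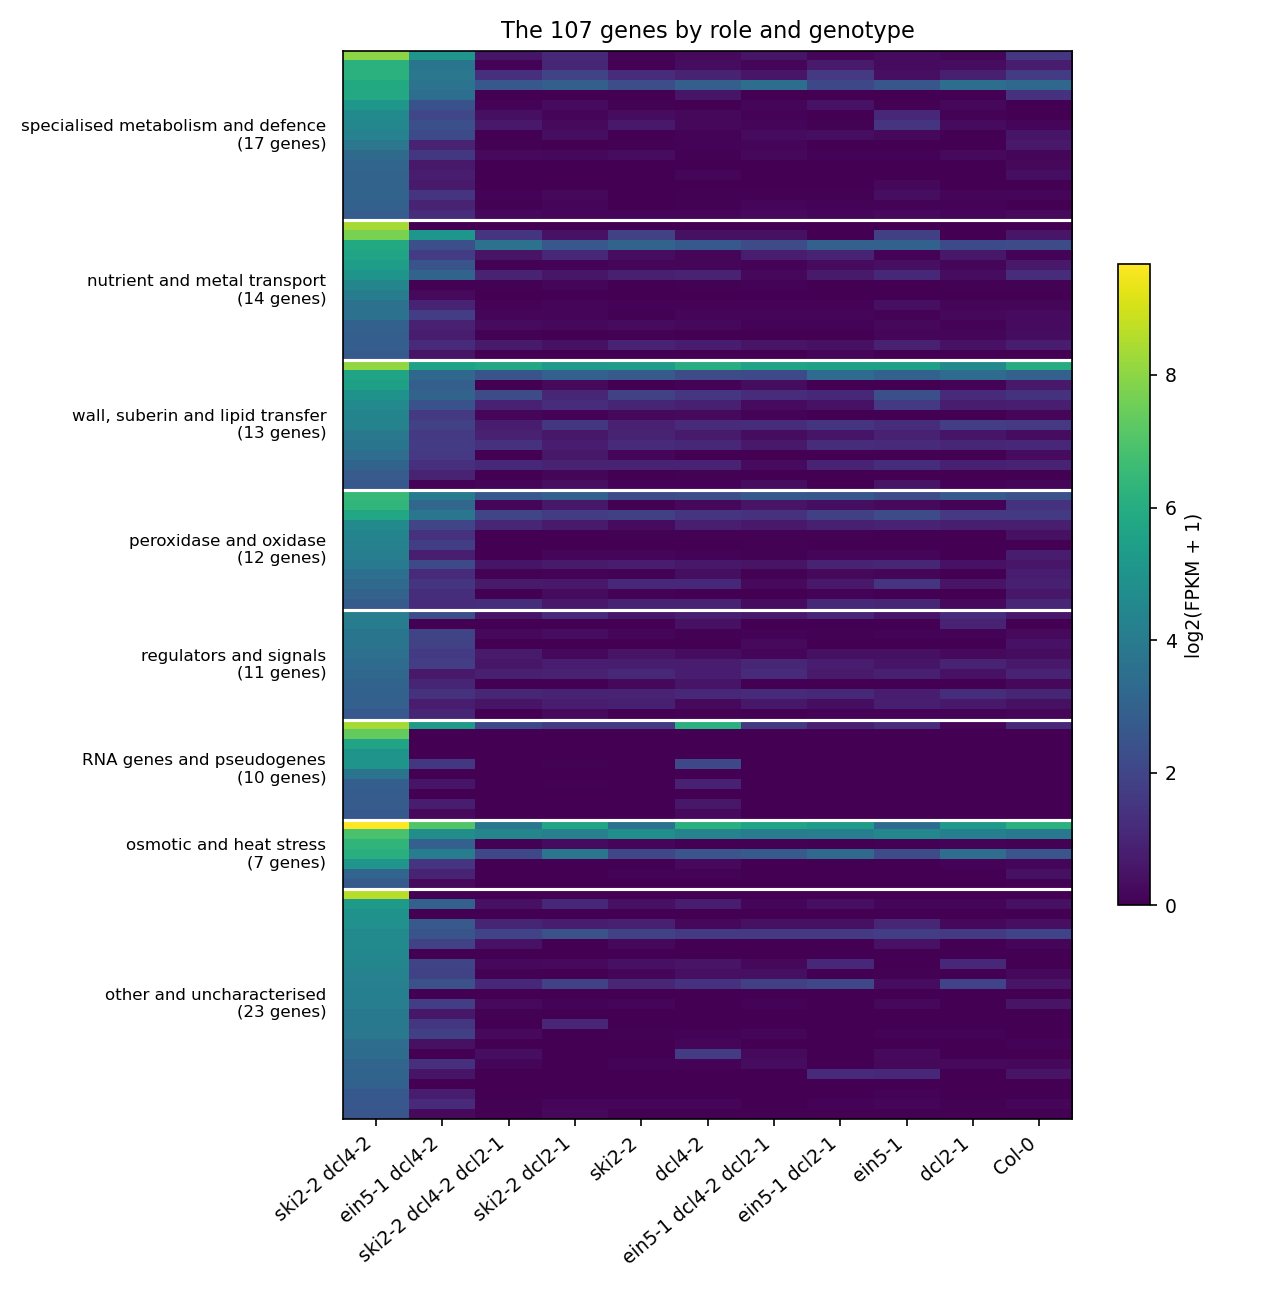
The 107 genes as rows, grouped by role and sorted within a group by level in ski2-2 dcl4-2, and the 11 genotypes as columns, coloured by log2(FPKM + 1). The first column is bright throughout, the second is intermediate in most groups, and the RNA genes and pseudogenes are dark outside the first column except for a few in ein5-1 dcl4-2 and dcl4-2.

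Among 7 genes linked to osmotic stress and heat was the most abundant of all. P5CS1, which makes the first committed step to proline, the solute that plants store under drought and salt, had 811 FPKM in ski2-2 dcl4-2 and 130 FPKM in ein5-1 dcl4-2. In the 8 other mutants it had 9.33 to 68.5 FPKM with a median of 36.8, and in Col-0 it had 70.5 FPKM. P5CS1 was thus already expressed in the wild type, and it had lower values than Col-0 in ski2-2 (11.2 FPKM), ski2-2 dcl4-2 dcl2-1 (13.7 FPKM) and ein5-1 (9.33 FPKM), where there was no test. It was lower in ein5-1 dcl4-2 dcl2-1 than in ein5-1 dcl4-2 by the authors' deposited log2 ratio of -1.39 (q = 0.000201). OZF1, a CCCH zinc finger protein, had 119 FPKM in ski2-2 dcl4-2, 26.2 FPKM in ein5-1 dcl4-2, 16.2 to 27.2 FPKM in the 8 other mutants and 13.9 FPKM in Col-0.

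Apart from AT1G62290, the rest of this group stood below 1 FPKM outside ski2-2 dcl4-2 and ein5-1 dcl4-2. DAA1 had 6.83 FPKM in ein5-1 dcl4-2 and at most 0.213 FPKM in the 8 other mutants. HSFA6A, a heat shock transcription factor, had 31.8 FPKM in ski2-2 dcl4-2, 1.80 FPKM in ein5-1 dcl4-2, at most 0.171 FPKM in the 8 other mutants and 0.114 FPKM in Col-0. It was listed at 0 in 6 genotypes. AT1G62290, a saposin-like aspartyl protease, had 66.4 FPKM in ski2-2 dcl4-2, 15.8 FPKM in ein5-1 dcl4-2, 3.13 to 12.8 FPKM in the 8 other mutants and 4.80 FPKM in Col-0, and it was higher in ein5-1 dcl4-2 than in Col-0 by the authors' deposited q of 0.000201. AT3G25930 and the membrane protein AT1G04560, of the AWPM-19 family, had 7.95 and 5.64 FPKM in ski2-2 dcl4-2 and less than 1 FPKM in every other genotype.

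The upstream 250 bases of AT1G04560 are shown because they hold more copies of the abscisic acid responsive core, ACGTG, than those of any other gene in this group. Capitals mark the core on either strand. It has 4 matches, all within G-boxes, CACGTG, which read the same on both strands and hold the core on each. The stretch is chr1:1244697-1244946 on the plus strand of TAIR10.1, read from RefSeq's genome at the annotated gene start.
AT1G04560 upstream: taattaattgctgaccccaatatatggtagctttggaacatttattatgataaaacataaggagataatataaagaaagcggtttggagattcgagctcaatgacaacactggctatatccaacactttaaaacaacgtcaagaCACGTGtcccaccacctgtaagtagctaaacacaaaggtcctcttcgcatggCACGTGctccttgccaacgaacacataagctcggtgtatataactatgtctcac
ACGTG was found in 3 of the 7 promoters of the osmotic and heat group, 42.9%. It was found on either strand in 23 of 96 promoters of protein-coding members, 24.0%, and in 23.1% of the 26686 promoters of the same length in the table. CACGTG, which contains ACGTG, was found in 9.38% of the members' promoters and 6.57% of all. A match is a string of letters and not a shown binding site.

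Uptake and distribution of nutrients was the role of 14 genes. NRT2.1, a high-affinity nitrate transporter of roots, had 48.6 FPKM in ski2-2 dcl4-2 and 2.22 FPKM in ein5-1 dcl4-2. It had 0.0624 to 1.16 FPKM with a median of 0.494 in the 8 other mutants and 0.0628 FPKM in Col-0. AMT1;3, an ammonium transporter of roots, had 11.37 FPKM in ski2-2 dcl4-2, 0.904 FPKM in ein5-1 dcl4-2, at most 0.316 FPKM in the 8 other mutants and 0.133 FPKM in Col-0. Both nitrogen transporters thus stood at or below 1.16 FPKM outside ski2-2 dcl4-2 and ein5-1 dcl4-2.

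PHT1;1, a phosphate transporter of roots, had 41.3 FPKM in ski2-2 dcl4-2, 4.68 FPKM in ein5-1 dcl4-2, 0.0448 to 0.305 FPKM in the 8 other mutants and 0.583 FPKM in Col-0. It was higher in ein5-1 dcl4-2 than in Col-0 by the authors' deposited log2 ratio of 3.004 (q = 0.000201). PHT1;2 had 5.66 FPKM in ski2-2 dcl4-2, 0.418 FPKM in ein5-1 dcl4-2, at most 0.0911 FPKM in the 8 other mutants and 0.0235 FPKM in Col-0. PHT1;1 and PHT1;2 lie on chromosome 5 with 1 protein-coding gene, PHT1;3, between them. Their spliced transcripts were 97.7% identical over 78.4% of PHT1;1, so reads can be assigned to either and their separate levels are uncertain. The stretches upstream of both are shown because the copies are alike in transcript and differ in front of it. Capitals mark the phosphate starvation response element, GNATATNC on either strand, which has 1 match before PHT1;2 and 0 before PHT1;1 in these 250 bases. They are chr5:17402159-17402408 on the minus strand and chr5:17415448-17415697 on the plus strand of TAIR10.1.
PHT1;1 upstream: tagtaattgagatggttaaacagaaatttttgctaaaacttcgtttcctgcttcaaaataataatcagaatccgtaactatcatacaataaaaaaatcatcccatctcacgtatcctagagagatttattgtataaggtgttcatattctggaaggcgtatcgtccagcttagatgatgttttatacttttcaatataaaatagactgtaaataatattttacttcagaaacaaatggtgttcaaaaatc
PHT1;2 upstream: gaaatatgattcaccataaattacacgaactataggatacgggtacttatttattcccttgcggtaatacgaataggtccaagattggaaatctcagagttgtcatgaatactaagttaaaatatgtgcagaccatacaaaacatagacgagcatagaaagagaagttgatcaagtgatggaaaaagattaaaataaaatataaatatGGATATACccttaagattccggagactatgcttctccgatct
The element was found in 7.29% of the members' promoters, 7 of 96, and in 5.44% of all promoters. Genes of phosphate limitation outside the 107 did not share the pattern of these transporters. All 11 of that list were higher in another genotype than in ski2-2 dcl4-2, and PAP17, an acid phosphatase of phosphate starvation, had 56.3 FPKM in ski2-2 dcl4-2 and 201 FPKM in ein5-1 dcl4-2, against 7.22 FPKM in Col-0. By the authors' deposited q, 5 of the 11 were higher in ski2-2 dcl4-2 than in Col-0, beside 15.1% of all genes. In ein5-1 dcl4-2 over Col-0, 8 of the 11 were higher, beside 20.4% of all genes.

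The rest of this group was mainly genes of metal homeostasis. AT3G12900, a 2-oxoglutarate- and iron-dependent oxygenase, had the largest ratio of all 107, 225, with 20.4 FPKM in ski2-2 dcl4-2 and 0.037 FPKM in ein5-1 dcl4-2. It had at most 0.0908 FPKM in the 8 other mutants and 0.0396 FPKM in Col-0, and the authors' q against Col-0 was 0.245. NAS2, which makes the metal chelator nicotianamine, was next with a ratio of 91.5, from 16.0 FPKM in ski2-2 dcl4-2 and 0.175 FPKM in ein5-1 dcl4-2, and was listed at 0 in the other 9 genotypes. For AT3G12900 and NAS2 the level in ein5-1 dcl4-2 was no higher than a fraction of 1 FPKM.

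bHLH38, a transcription factor that switches on iron uptake, behaved otherwise, with 30.8 FPKM in ski2-2 dcl4-2 and 7.49 FPKM in ein5-1 dcl4-2, against 1.32 FPKM in Col-0. It was higher in ein5-1 dcl4-2 than in Col-0 (authors' deposited log2 ratio 2.50, q = 0.000201). ABCG37, a transporter that exports coumarins and other phenolics from roots, had 11.2 FPKM in ski2-2 dcl4-2 and 2.39 FPKM in ein5-1 dcl4-2, against 0.232 FPKM in Col-0 (ein5-1 dcl4-2 over Col-0, authors' deposited log2 ratio 3.37, q = 0.000201). AT4G08570, a heavy metal domain protein, had 208 FPKM in ski2-2 dcl4-2, 32.6 FPKM in ein5-1 dcl4-2, 0 to 2.61 FPKM in the 8 other mutants and 0.502 FPKM in Col-0. ZIP2 and MTPA2, a metal importer of the ZIP family and a vacuolar metal transporter, had 6.63 and 6.47 FPKM in ski2-2 dcl4-2.

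Of 18 other genes of iron limitation, 11 were higher and 0 lower in ski2-2 dcl4-2 than in Col-0 by the authors' q, beside 15.1% and 13.8% of all genes. Likewise 11 were higher and 0 lower in ein5-1 dcl4-2 than in Col-0, beside 20.4% and 16.3%. These 2 comparisons share the Col-0 libraries. The IMA peptides, which signal iron shortage, had lower values in ski2-2 dcl4-2 than in ein5-1 dcl4-2, a pair with no test. IMA3 had 522 FPKM in ski2-2 dcl4-2 and 887 FPKM in ein5-1 dcl4-2, against 62.0 FPKM in Col-0. FRO3, a ferric reductase, had 40.5 FPKM in ski2-2 dcl4-2 and 20.2 FPKM in ein5-1 dcl4-2, against 8.30 FPKM in Col-0. BGLU42, a glucosidase linked to iron shortage, was not called, with 12.6 FPKM in ski2-2 dcl4-2 and 8.53 FPKM in ein5-1 dcl4-2, against 10.8 FPKM in Col-0.

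MT1A, a metallothionein that binds metals, had 326 FPKM in ski2-2 dcl4-2 and was listed at 0 in all other genotypes. Its annotated transcript lies whole within that of AT1G07590 and is 94.9% identical to MT1C, its neighbour. MT1C had 598 FPKM in ski2-2 dcl4-2 and 1929 FPKM in ein5-1 dcl4-2, against 41.4 FPKM in Col-0, and AT1G07590 had 610, 2076 and 224 FPKM in the same order of genotypes. The listed 0 of MT1A therefore cannot be told apart from reads assigned to AT1G07590 or MT1C, and its authors' q against Col-0 was 0.356. AT1G25530, an amino acid transporter, was an exception in this group, with 57.6 FPKM in ski2-2 dcl4-2 but 4.07 FPKM in ein5-1 dcl4-2, against 3.70 FPKM in Col-0, and its next genotype was ski2-2 dcl4-2 dcl2-1 at 11.46 FPKM. ABCG35, another ABC transporter, had 6.99 FPKM in ski2-2 dcl4-2 and 0.837 FPKM in ein5-1 dcl4-2, against 0.223 FPKM in Col-0.

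**Figure D3:**
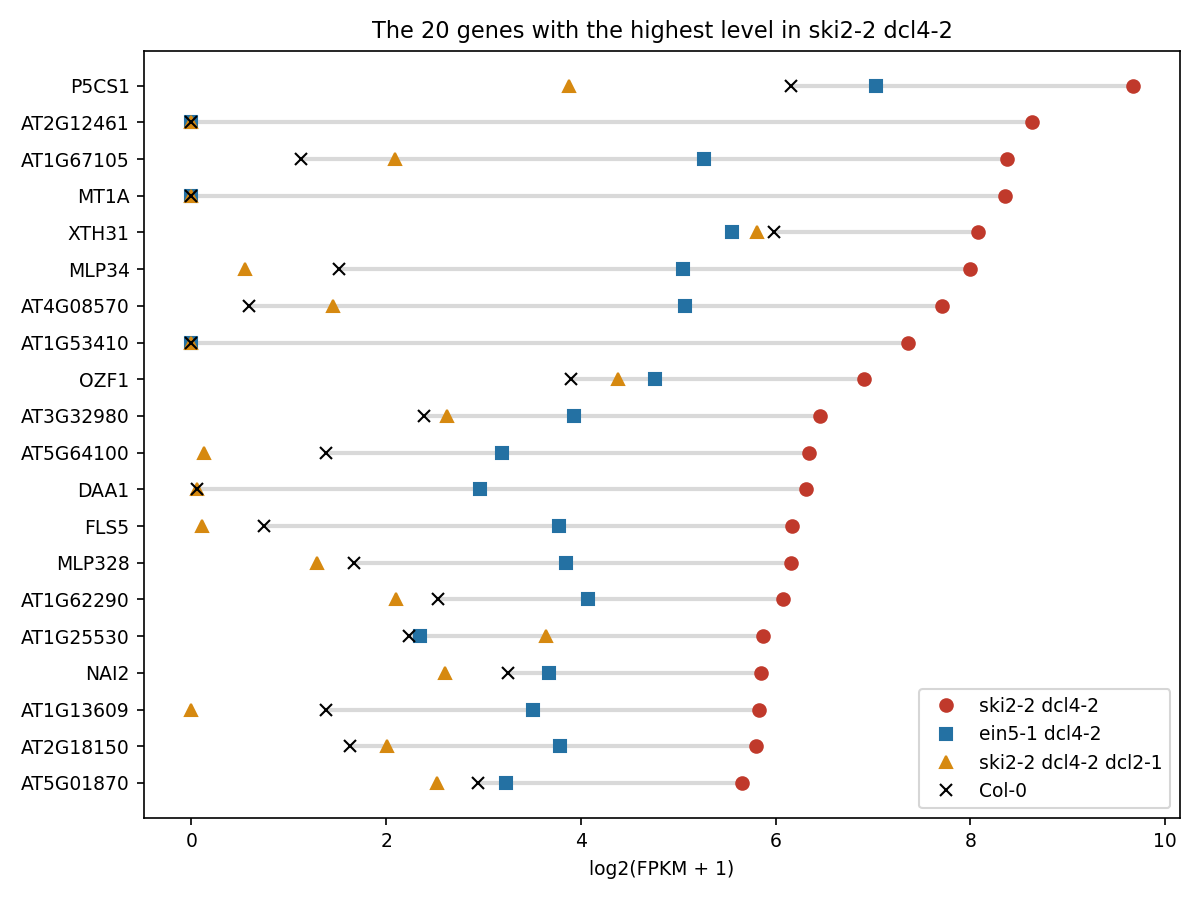
The 20 genes of the rule with the highest level in ski2-2 dcl4-2, as log2(FPKM + 1) in ski2-2 dcl4-2, ein5-1 dcl4-2, ski2-2 dcl4-2 dcl2-1 and Col-0, with a grey line from ski2-2 dcl4-2 to Col-0. In most genes ein5-1 dcl4-2 lies between ski2-2 dcl4-2 and the others, and in AT2G12461, MT1A and AT1G53410 all but ski2-2 dcl4-2 stand at 0.

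Class III peroxidases, secreted enzymes that cross-link or loosen cell walls, made up 9 of the 12 oxidases and peroxidases. AT3G32980 had 87.0 FPKM in ski2-2 dcl4-2, 14.2 FPKM in ein5-1 dcl4-2, 3.54 to 7.11 FPKM in the 8 other mutants and 4.25 FPKM in Col-0. AT5G64100 had 80.2 FPKM in ski2-2 dcl4-2, 8.11 FPKM in ein5-1 dcl4-2, 0 to 0.531 FPKM in the 8 other mutants and 1.60 FPKM in Col-0. AT2G18150 had 54.5 FPKM in ski2-2 dcl4-2, 12.8 FPKM in ein5-1 dcl4-2, 1.57 to 3.71 FPKM in the 8 other mutants and 2.099 FPKM in Col-0. All 3 of these peroxidases were higher in ein5-1 dcl4-2 than in Col-0, ein5-1 and dcl4-2 and were lower once dcl2-1 was added to ein5-1 dcl4-2, by the authors' deposited q.

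AT2G38390, AT3G01190, AT1G49570, AT5G17820, AT4G30170 and RCI3 are the other 6 peroxidases, with 23.3 to 5.69 FPKM in ski2-2 dcl4-2. Of them AT5G17820 had the widest margin, with 16.7 FPKM in ski2-2 dcl4-2 and 0.778 FPKM in ein5-1 dcl4-2, against 0.728 FPKM in Col-0. The group also held LAC3, a laccase, GLP4, a germin-like protein, and AT1G30760, a berberine bridge enzyme-like oxidase, with 9.05, 7.36 and 14.4 FPKM in ski2-2 dcl4-2. Of the 12 genes 8 were higher in ein5-1 dcl4-2 than in Col-0 by the authors' q and 8 were lower in ein5-1 dcl4-2 dcl2-1 than in ein5-1 dcl4-2, beside 20.4% and 19.1% of all genes. The annotation names 64 genes of the table as peroxidases by product. Of the 55 outside the rule, 20 were higher and 3 lower in ski2-2 dcl4-2 than in Col-0 by the authors' q, beside 15.1% and 13.8% of all genes. In ein5-1 dcl4-2 over Col-0, 16 were higher and 6 lower, beside 20.4% and 16.3% of all genes.

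Cell wall, suberin and lipid transfer genes numbered 13. CYP86A1, a hydroxylase that makes suberin monomers, had 12.5 FPKM in ski2-2 dcl4-2, 2.33 FPKM in ein5-1 dcl4-2, 0.562 to 1.61 FPKM in the 8 other mutants and 1.13 FPKM in Col-0. It was higher in ein5-1 dcl4-2 than in Col-0 (authors' deposited log2 ratio 1.05, q = 0.00357). FACT, which esterifies caffeic acid to fatty alcohols in suberin-associated waxes, had 13.7 FPKM in ski2-2 dcl4-2 and 2.16 FPKM in ein5-1 dcl4-2, against 0.266 FPKM in Col-0. Both suberin genes followed the order ski2-2 dcl4-2, ein5-1 dcl4-2, then the rest. BAT1, an acyltransferase that acts on brassinosteroids, had 30.6 FPKM in ski2-2 dcl4-2 and 7.49 FPKM in ein5-1 dcl4-2, against 1.65 FPKM in Col-0.

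XTH31, an enzyme that remodels xyloglucan in the wall, was abundant everywhere. It had 270 FPKM in ski2-2 dcl4-2, 45.7 FPKM in ein5-1 dcl4-2, 23.6 to 63.6 FPKM in the 8 other mutants and 62.3 FPKM in Col-0, so it stood in ein5-1 dcl4-2 within the range of the rest. XTH20 had 5.80 FPKM and EXPA17, an expansin, 5.36 FPKM in ski2-2 dcl4-2, and both had under 1 FPKM in every other genotype. The lipid transfer proteins AT5G01870, AIR1, AT3G58550 and AT4G22610 had 49.2, 43.8, 23.4 and 9.94 FPKM in ski2-2 dcl4-2. Of these AIR1, named for its induction by auxin in root cultures, had 6.56 FPKM in ein5-1 dcl4-2 and 0.5996 FPKM in Col-0, with at most 0.249 FPKM in the 8 other mutants. AT1G26250, an extensin-like protein, AT2G43610, a chitinase, and AT1G74460, a GDSL lipase, had 19.5, 19.2 and 7.64 FPKM in ski2-2 dcl4-2. None of the 13 stretches of 250 bases upstream held any of the 3 motifs above.

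Specialised metabolism and defence was the role of 17 genes, and ein5-1 dcl4-2 was next highest for all 17. MLP34, of the major latex protein family, had 255 FPKM in ski2-2 dcl4-2, 32.2 FPKM in ein5-1 dcl4-2, 0.0668 to 1.18 FPKM in the 8 other mutants and 1.85 FPKM in Col-0. FLS5, named as a flavonol synthase, had 71.1 FPKM in ski2-2 dcl4-2, 12.7 FPKM in ein5-1 dcl4-2, 0.0507 to 1.03 FPKM in the 8 other mutants and 0.674 FPKM in Col-0. Both were higher in ein5-1 dcl4-2 than in Col-0, with authors' deposited log2 ratios of 4.12 and 4.23 (q = 0.000201 for each). MLP328, a relative of MLP34, and AT4G14060, a polyketide cyclase-like protein, had 70.4 and 23.2 FPKM in ski2-2 dcl4-2. The defensin-like AT1G13609 had 55.7 FPKM in ski2-2 dcl4-2 and 10.4 FPKM in ein5-1 dcl4-2, against 1.61 FPKM in Col-0, and was listed at 0 in 7 mutants.

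Terpene genes lay side by side on the chromosomes. TPS-CIN, cineole synthase, is annotated as a pair of adjacent genes on chromosome 3 whose transcripts are 100% identical over 54.0% of one of them, so reads cannot be assigned to one alone. AT3G25820 had 7.96 FPKM in ski2-2 dcl4-2 and 0.583 FPKM in ein5-1 dcl4-2, against 0.167 FPKM in Col-0. AT3G25830 had 7.45 FPKM in ski2-2 dcl4-2 and 0.665 FPKM in ein5-1 dcl4-2, against 0.297 FPKM in Col-0. TPS12, another terpene synthase, and CYP71A19 are next to each other on chromosome 4 and had 7.05 and 9.06 FPKM in ski2-2 dcl4-2. CYP708A2, which hydroxylates the root triterpene thalianol, had 7.34 FPKM in ski2-2 dcl4-2 and 1.75 FPKM in ein5-1 dcl4-2, against 0.114 FPKM in Col-0. Of the 5 triterpene genes outside the rule, THAS1 and THAD, which act with CYP708A2 in the thalianol gene cluster, were higher in ski2-2 dcl4-2 than in Col-0 and the 3 others were not called. By the same q 15.1% of all genes were higher. THAS1 had 5.41 FPKM in ski2-2 dcl4-2 and 1.79 FPKM in ein5-1 dcl4-2, against 0.119 FPKM in Col-0.

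ER bodies are compartments of Brassicaceae cells that store glucosidases for defence. NAI2, needed to form them, had 56.8 FPKM in ski2-2 dcl4-2, 11.7 FPKM in ein5-1 dcl4-2, 3.24 to 10.3 FPKM in the 8 other mutants and 8.496 FPKM in Col-0. BGLU21, one of the glucosidases, had 13.1 FPKM in ski2-2 dcl4-2, 0.940 FPKM in ein5-1 dcl4-2, at most 0.107 FPKM in the 8 other mutants and 0.587 FPKM in Col-0. BGLU22, 90.3% identical to BGLU21 in transcript, just missed the fold with 34.4 FPKM in ski2-2 dcl4-2 and 8.73 FPKM in ein5-1 dcl4-2. The 3 genes of the ER body list outside the rule, BGLU22, NAI1 and PBP1, were all higher in ski2-2 dcl4-2 than in Col-0 and all higher in ein5-1 dcl4-2 than in Col-0, by the authors' q. Of all genes, 15.1% and 20.4% were higher in these comparisons. PBP1, a binding partner of the glucosidase PYK10, had 532 FPKM in ski2-2 dcl4-2 and 448 FPKM in ein5-1 dcl4-2, against 88.5 FPKM in Col-0.

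The remaining genes of this group are enzymes and defence proteins. GSTF14, a glutathione transferase, had 33.5 FPKM in ski2-2 dcl4-2 and 4.46 FPKM in ein5-1 dcl4-2, and was listed at 0 in Col-0. The methyltransferases AT5G37990 and AT5G04380 had 21.2 and 7.42 FPKM in ski2-2 dcl4-2, the secreted protein AT4G07820 had 18.3 FPKM and the alcohol dehydrogenase AT1G22440 had 6.10 FPKM. In all, 9 of the 17 were higher in ein5-1 dcl4-2 than in Col-0 by the authors' q and 6 were lower in ein5-1 dcl4-2 dcl2-1 than in ein5-1 dcl4-2, beside 20.4% and 19.1% of all genes.

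Regulators and signals had the lowest median of the groups, 9.37 FPKM over 11 genes with 5.39 to 16.6 FPKM in ski2-2 dcl4-2. WRKY65 had 16.6 FPKM in ski2-2 dcl4-2, 4.02 FPKM in ein5-1 dcl4-2, 0.463 to 1.27 FPKM in the 8 other mutants and 0.544 FPKM in Col-0. AHL19 and AHL22, AT-hook proteins of the nucleus, had 12.4 and 5.39 FPKM in ski2-2 dcl4-2. WRKY65, AHL19, AHL22, ZFP6 and PIL2 were the 5 of these 11 called higher in ein5-1 dcl4-2 than in Col-0 by the authors' q, beside 20.4% of all genes. PSK1, a precursor of the growth peptide phytosulfokine, had 12.2 FPKM in ski2-2 dcl4-2 and 2.64 FPKM in ein5-1 dcl4-2, against 0.402 FPKM in Col-0.

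Not every regulator had its next level in ein5-1 dcl4-2. NTL8, a membrane-bound NAC factor, had 8.43 FPKM in ski2-2 dcl4-2 and 0.566 FPKM in ein5-1 dcl4-2, against 0.373 to 1.24 FPKM in the 8 other mutants and 0.921 FPKM in Col-0. LRP1, a factor of lateral root primordia, did have it there, with 6.93 FPKM in ski2-2 dcl4-2 and 1.66 FPKM in ein5-1 dcl4-2, against 0.980 FPKM in Col-0. AT5G35120, a MADS-box gene, had 15.7 FPKM in ski2-2 dcl4-2 and was listed at 0 in ein5-1 dcl4-2 and Col-0. Its closest copies, AT1G59930 and AT1G59920, are each 92.9% identical over its whole length. AT1G59930 was at 178 FPKM in ski2-2 dcl4-2 and 18.7 FPKM in ein5-1 dcl4-2, against 3.56 FPKM in Col-0. AT1G59920 had 89.5, 5.97 and 2.94 FPKM in the same order of genotypes. Reads of one may be assigned to another, so the level of AT5G35120 is uncertain. bZIP8 and the SAUR-like gene AT3G12955 had 7.42 and 6.70 FPKM in ski2-2 dcl4-2.

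RNA genes and pseudogenes made up 10 of the 107, and ein5-1 dcl4-2 was the next genotype for 1 of them. AT1G67105, a long non-coding RNA, had 332 FPKM in ski2-2 dcl4-2 and its next genotype was dcl4-2 at 70.1 FPKM, followed by ein5-1 dcl4-2 at 37.4 FPKM. It had 0.124 to 3.25 FPKM in the remaining mutants and 1.18 FPKM in Col-0, so it was highest in the 3 genotypes that carry dcl4-2 without dcl2-1. It was higher in ein5-1 dcl4-2 than in Col-0 (authors' deposited log2 ratio 4.99, q = 0.000201), and lower in ein5-1 dcl4-2 dcl2-1 than in ein5-1 dcl4-2 (log2 ratio -4.26, q = 0.000201). Its contrast of dcl4-2 with Col-0 had no test. The pseudogene AT2G04770 had the same order, with 30.8 FPKM in ski2-2 dcl4-2, 3.26 FPKM in dcl4-2, 2.00 FPKM in ein5-1 dcl4-2 and at most 0.053 FPKM elsewhere.

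AT1G50850, AT2G06720 and AT1G39110, 3 more pseudogenes, had 6.46, 6.07 and 5.29 FPKM in ski2-2 dcl4-2. In ein5-1 dcl4-2 and dcl4-2 they had 0.181 to 0.857 FPKM, and at most 0.0367 FPKM in the other genotypes. AT2G04770 and AT1G50850 each have copies elsewhere with at least 90% identity over at least 50% of their length, 9 and 7 of them, and AT1G39110 and AT2G06720 are 91.3% identical to each other. Their values are uncertain for that reason. AT1G49090, the copy most like AT2G04770, had 6.07 FPKM in ski2-2 dcl4-2 and 0.761 FPKM in ein5-1 dcl4-2, and was listed at 0 in Col-0.

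Precursors of miR858a and miR156f were listed at 0 in all genotypes but ski2-2 dcl4-2, and the mature sequences are shown to tell which regulators these genes encode. MIR858a had 12.3 FPKM (authors' q against Col-0 0.00177) and MIR156f had 48.6 FPKM (q of 1). miR858 targets MYB regulators of phenylpropanoid synthesis, and miR156 targets SPL factors that time the change of growth phase. The sequences are chr1:26773695-26773715 on the minus strand and chr5:9136126-9136145 on the plus strand of TAIR10.1, with capitals at the seed, bases 2 to 8.
miR858a: uUUCGUUGucuguucgaccuu
miR156f-5p: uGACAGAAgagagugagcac
The seeds differ. Levels of the mature microRNAs were not measured by poly(A) RNA sequencing. The precursor of miR156f lies within the long non-coding RNA AT5G26146, which had 0.123 FPKM in ski2-2 dcl4-2, so reads of one may be assigned to the other.

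Short annotation was shared by the genes listed at 0 elsewhere. Besides MT1A and both microRNAs they were AT1G53410, a cysteine tRNA with 163 FPKM, the small nucleolar RNA SNOR30 with 31.3 FPKM, the pseudogene AT3G42181, and AT2G12461, AT5G35069, AT2G13547, AT5G66607 and AT3G60318, which have no known role. Their annotated length was 72 to 822 bases with a median of 185 in the 10 that TAIR10.1 lists, against 1701 in the other members and 2017 over all genes. AT2G12461 had 396 FPKM in ski2-2 dcl4-2 and an authors' q of 1 against Col-0. The table gives no counts for these genes. The transcript of AT1G53410 is 100% identical over 100% of its length to AT2G28730, listed at 0 FPKM in ski2-2 dcl4-2. Reads cannot be assigned to either of these loci alone. Only MIR858a, AT2G13547 and AT3G42181 of these 11 passed q against Col-0.

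Another 23 genes had no annotated role or stood outside the groups above. AT5G10580 had 37.8 FPKM and AT5G63350, with a von Willebrand factor A domain, 28.6 FPKM in ski2-2 dcl4-2. AT5G10580 had 6.85 FPKM in ein5-1 dcl4-2, 0.0997 to 1.16 FPKM in the 8 other mutants and 0.356 FPKM in Col-0. AT5G10580, AT5G63350, AT3G03170, AT2G21045 and AT4G35720 were the 5 of these 23 called higher in ein5-1 dcl4-2 than in Col-0. Taken over all 23, this share is near the 20.4% of all genes that reached 1 FPKM, an unlike denominator. AT3G54040, AT3G24750 and AT5G40790 were called higher in ein5-1 dcl4-2 against ein5-1 or dcl4-2 but not against Col-0. AT1G27461, AT1G68250 and AT5G40590 had ratios of 25.9, 28.4 and 27.5, from 14.0, 9.84 and 5.03 FPKM in ski2-2 dcl4-2 and at most 0.540 FPKM in ein5-1 dcl4-2.

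RefSeq's annotation carries notes on the organs of expression, and those of the members often named the root although the libraries were labelled as aerial parts. Of 31 members whose note named organs, 26 named the root, 83.9%, against 745 of 2492 genes of the table, 29.9%. Only the plain entry root was counted in both, so TPS12, noted in the root cortex, was not. The notes leave out genes expressed in most structures. Examples in which the root was the only organ were PSK1, GLP4, AT2G38390 and AT3G12900. The leaf was the only organ noted for AT3G32980, PHT1;2 and HSFA6A. The part of root tissue in these levels was not tested.

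Lists of organ markers were set beside this, counting genes outside the rule in ski2-2 dcl4-2 against Col-0 by the authors' q, which called 15.1% of all genes higher and 13.8% lower. A gene under 1 FPKM in both could not be called, and 3 of the 9 endodermis genes, 2 of the 9 root hair genes and 1 of the 7 meristem and cap genes below reached that level. Of 9 genes of the endodermis and its Casparian strip, a barrier of the root, 0 were called in either direction, and their summed level was 10.7 FPKM in ski2-2 dcl4-2 and 3.63 FPKM in ein5-1 dcl4-2, against 1.87 FPKM in Col-0. CASP1, the scaffold of the strip, had 2.88 FPKM in ski2-2 dcl4-2 and 0.398 FPKM in Col-0, and 7 of the 9 were highest in ski2-2 dcl4-2. Of 9 root hair genes 0 were called, although all 9 were highest in ski2-2 dcl4-2, with a top value of 1.35 FPKM for EXPA7. Their sum was 5.34 FPKM in ski2-2 dcl4-2 and 0.316 FPKM in ein5-1 dcl4-2, against 1.13 FPKM in Col-0. Of 7 genes of the root meristem and cap 0 were called and the cap regulators SMB, BRN1, BRN2 and FEZ were listed at 0 in ski2-2 dcl4-2. WOX5, of the root stem cell niche, had 1.497 FPKM in ski2-2 dcl4-2 and 0.0756 FPKM in ein5-1 dcl4-2, against 0.274 FPKM in Col-0.

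Suberin genes also act in wounded and outer tissues of shoots. Of 11 outside the rule 9 reached 1 FPKM in ski2-2 dcl4-2 or Col-0, and 8 were higher and 0 lower in ski2-2 dcl4-2. Among them FAR1, a fatty acyl reductase, had 22.7 FPKM in ski2-2 dcl4-2 and 10.07 FPKM in ein5-1 dcl4-2, against 4.77 FPKM in Col-0. FAR1 was also at 12.9 FPKM in ski2-2 dcl2-1 and 12.3 FPKM in dcl2-1, above ein5-1 dcl4-2. GPAT5, FAR5 and MYB41 of this list were highest in ein5-1 dcl4-2 and the rest in ski2-2 dcl4-2. Of 13 root transport genes outside the rule 9 were higher and 1 lower. SULTR1;2, a root sulfate transporter, had 27.0 FPKM in ski2-2 dcl4-2 and 18.3 FPKM in ein5-1 dcl4-2, against 0.577 FPKM in Col-0. NPF7.3, which loads nitrate into the xylem, had 68.7 FPKM in ski2-2 dcl4-2 and 53.9 FPKM in ein5-1 dcl4-2, against 11.003 FPKM in Col-0. The exception was TIP2;2, an aquaporin of root vacuoles, with 102 FPKM in ski2-2 dcl4-2 and 242 FPKM in ein5-1 dcl4-2, against 288 FPKM in Col-0.

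Other organs were measured too. Of 11 seed and embryo genes 4 were higher and 0 lower in ski2-2 dcl4-2, among them EM6 with 5.56 FPKM in ski2-2 dcl4-2 and 38.5 FPKM in ein5-1 dcl4-2, and listed at 0 in Col-0. Of 6 floral genes 0 were higher and 3 lower, beside 13.8% lower of all genes. All 10 leaf photosynthesis genes were lower in ski2-2 dcl4-2 than in Col-0, and all 10 were lower in ein5-1 dcl4-2 than in Col-0, beside 13.8% and 16.3% of all genes. Their summed level was 14554 FPKM in ski2-2 dcl4-2 and 9456 FPKM in ein5-1 dcl4-2, against 80259 FPKM in Col-0. All 10 had a lower level in ein5-1 dcl4-2 than in ski2-2 dcl4-2. After quantile normalization of the FPKM columns 4 of the 10 were called lower in ski2-2 dcl4-2. The part of these shifts in the levels of the 107 genes was not tested.

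**Figure D4:**
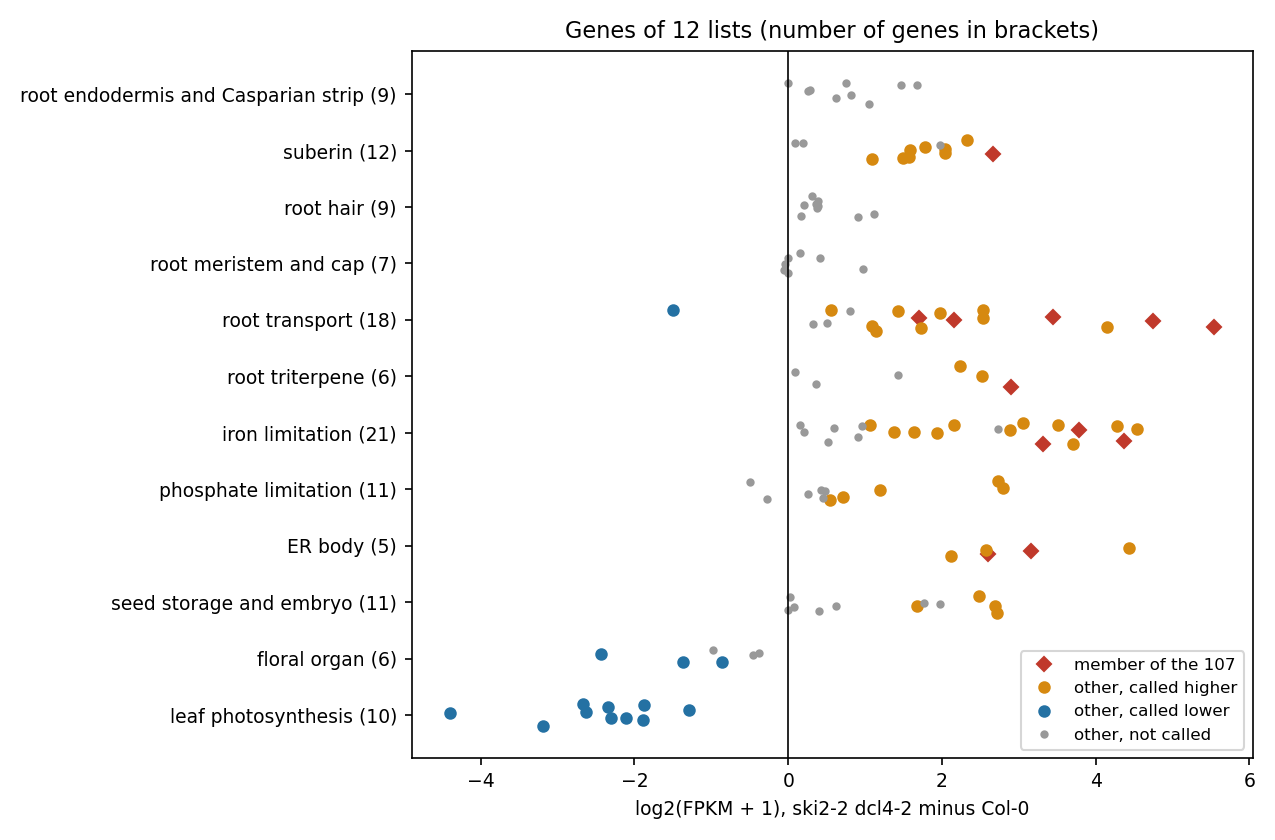
Each gene of the 12 lists as its log2(FPKM + 1) difference, ski2-2 dcl4-2 minus Col-0, with members of the 107 as diamonds, other genes called by the authors' q as coloured circles and genes not called as grey points. Casparian strip genes lie at or right of 0 and root hair genes right of 0, all without a call, leaf photosynthesis genes all lie left of 0, and vertical scatter has no meaning.

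Just inside the fold were PIL2 with a ratio of 4.01, RCI3 with 4.03 and BAT1 with 4.08. Just outside it were SBT4.12, AT4G36430 and BGLU22, with ratios of 3.99, 3.98 and 3.94, and ein5-1 dcl4-2 was next highest for all 3. Just inside the minimum level were AT5G40590 at 5.03 FPKM, PP2-A8, a phloem lectin, at 5.12 FPKM and AT1G39110 at 5.29 FPKM. Just outside it were AT5G37690, AT2G18980 and AT5G40510 with 4.98, 4.96 and 4.66 FPKM.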

How the data were processed

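Aerial parts of 11 Arabidopsis genotypes were sequenced as poly(A) RNA, 3 libraries each. Reads were aligned with TopHat2 2.1.1 to TAIR10 and compared with Cuffdiff, whose version is not given in the sources used here, per the submitters' processing notes. The authors deposited FPKM pooled over the libraries of each genotype. Neither counts nor single libraries are in the table, so read depth is unknown and no interval can be given. The authors' log2 ratios, p-values and q-values for 8 pairs of genotypes were used as deposited, and no test was computed here.

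Genes were chosen by FPKM as the rule states, and a call needed the authors' q under 0.05, a 2-fold ratio and 1 FPKM. Members, role groups and lists were chosen with earlier results of these data known. Genes were named if they were among the 20 highest or the 10 largest ratios, on a list, in a family or beside another member, called in a pair without ski2-2 dcl4-2, or next to a threshold. Others of a role group were named after their values were seen. Gene names, sequences and notes came from RefSeq's TAIR10.1, which held 106 of the 107 members and 32810 of the 33557 identifiers. TAIR10.1 coordinates are those of the reference, not of the table. Copies were transcripts at least 90% identical over at least 50% of the length (BLAST 2.17.0). Scripts ran in Python 3.11.15 with pandas 2.3.3, numpy 2.4.6 and matplotlib 3.10.9, and were tested on simulated data. Alternatives were other thresholds, pseudocounts and scalings.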

Additional observations from a re-analysis of the deposited data

How the results depend on the processing

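The values are pooled, so no library could be left out, and depth is unknown, which limits every gene near 0. No paired analysis was possible because the table holds 1 pooled value per genotype. The rule took 166 genes at a fold of 3, 42 at a fold of 8, 317 at a minimum of 1 FPKM and 69 at a minimum of 10 FPKM. Median-of-ratios scaling gave 113 genes, among them all 107, and quantile normalization gave 127, among them 97 of the 107. With a minimum of 5 FPKM the calls of the 107 genes fell to 15 for ein5-1 dcl4-2 over Col-0, 14 over ein5-1 and 12 over dcl4-2, all higher, and to 13 lower for ein5-1 dcl4-2 dcl2-1 over ein5-1 dcl4-2. With a pseudocount of 0.1 the genes past the fold against Col-0 were 8 in ski2-2, 8 in dcl4-2, 11 in ski2-2 dcl4-2 dcl2-1, 9 in ski2-2 dcl2-1, 12 in dcl2-1 and 7 in ein5-1 dcl4-2 dcl2-1. The median difference of the 107 genes was 2.12 with a pseudocount of 0.1 and 0.65 after quantile normalization for ein5-1 dcl4-2 over Col-0, 2.197 and 0.73 over ein5-1, 2.37 and 0.73 over dcl4-2, and -2.68 and -0.84 for ein5-1 dcl4-2 dcl2-1 over ein5-1 dcl4-2. With a pseudocount of 0.1 it was -0.17 in dcl2-1, -0.17 in ein5-1 dcl2-1 and -0.20 in ein5-1 dcl4-2 dcl2-1 over Col-0. Among the lists, a minimum of 5 FPKM left 4 suberin, 4 root transport, 1 triterpene, 2 phosphate and 2 seed genes higher and 1 floral gene lower. Without a minimum ratio 8 phosphate genes were higher and 1 lower. Quantile normalization left 3 phosphate genes higher and 4 leaf photosynthesis genes lower. Of the values compared, 119 stayed within 1.5 times the count or 0.1 of the median and 35 moved. A change of direction could be scored only for medians of at least 0.1 in size, and 0 of these changed. Counts could not be scored for direction, nor could the smaller medians of the 8 other mutants over Col-0. Median-of-ratios scaling shifted all genes by over 0.1 on the log2 scale in 1 comparison, by 0.11 for ein5-1 dcl4-2 over dcl4-2. The cause of these changes was not tested.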
